A study of Homo sapiens with 6 samples.

Results

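The genes followed here are 9 receptors of the TNF superfamily in MM.1S, an established line of human myeloma cells: TNFRSF13B (TACI), TNFRSF13C (BAFF receptor), CD40, CD27, FAS, TNFRSF10A and TNFRSF10B (the TRAIL receptors DR4 and DR5), TNFRSF1A and TNFRSF1B (the TNF receptors TNFR1 and TNFR2). They were chosen by symbol, and all 9 are among the 21850 genes of the deposited count table. RNA was sequenced on day 3 after infection with a lentiviral short hairpin against PRKCN (genotype PRKCN knockdown, 3 libraries, shPRKCN) or with a scramble hairpin (genotype WT, 3 libraries, shNT). PRKCN is a protein kinase D, listed under its current symbol PRKD3. Which PRKCN hairpin was used is not given in the labels, so that the knockdown and the hairpin that made it cannot be told apart, and both groups are 1 cell line that had been infected. The labels do not say whether the libraries of a group came from separate cultures, and p-values then measure only the spread between these libraries, which may be technical.

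Receptors of this superfamily are bound by trimeric ligands at the cell surface. Some, such as FAS, TNFR1, DR4 and DR5, carry an intracellular death domain that recruits FADD or TRADD and can lead to caspase-8 activation. Others, such as TACI, the BAFF receptor, CD40, CD27 and TNFR2, lack a death domain and recruit TRAF adaptors that signal to NF-κB. Plasma cells depend on BAFF and APRIL, the ligands of TACI and BCMA, for survival, and BAFF receptor, CD40 and CD27 are best known from mature and memory B cells.

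Total counts ran from 35625564 to 37730003 per library. PRKD3, the targeted gene, had 1272, 1298 and 1216 CPM (read counts scaled to the TMM-adjusted library size) in the shNT libraries and 535, 491 and 526 CPM in the shPRKCN libraries. It fell by 1.29 on the log2 scale (SE 0.034, edgeR adjusted p = 8.2e-43), to 41.0% of the control mean. The cells carried the plasma cell markers SDC1, JCHAIN, MZB1 and XBP1 in every library. The summed level of 8 plasma cell markers was 9073 to 9188 CPM in shNT and 7856 to 7983 CPM in shPRKCN libraries, and JCHAIN, which did not pass the test, made up most of it. The other members split. IRF4 (27.7% of the control mean), XBP1 (41.1%) and SLAMF7 (51.2%) were called lower, PRDM1 (68.7%) and MZB1 (85.5%) were lower and SDC1 (113.5%) higher at an adjusted p under 0.05 alone, and CD38 did not pass. Markers of other blood cells also differed between the groups. Of 8 B cell markers 7 are listed, with a summed 47.1 to 51.0 CPM in shNT and 94.3 to 98.5 CPM in shPRKCN libraries, nearly all of it from CR2 and CD79B, while MS4A1, PAX5 and CD22 had at most 8 counts in any library. CR2 (1.23 in log2) and CD79B (0.72) were called higher. CD79A (−0.63, edgeR adjusted p = 0.071) and BLK (−0.28, adjusted p = 0.491) were lower and did not pass the test. For T and NK cells (5 of 6 listed) the sums were 11.3 to 12.7 and 27.8 to 31.9 CPM, mostly from CD3E, which was called higher (1.40 in log2). CD3D had no more than 1 count and CD8A 2 to 10 counts, and neither was tested. GNLY was called lower (−1.37 in log2, edgeR adjusted p = 0.0165), with 16 to 24 counts in shNT and 5 to 14 counts in shPRKCN libraries. CD2 (−0.39 in log2) did not pass the test. Myeloid markers (5 of 6 listed) summed to 0.347 to 0.878 and 1.55 to 1.72 CPM, and stromal markers (4 of 6 listed) to 0.821 to 1.47 and 0.484 to 0.737 CPM. Only 1 marker of each had enough reads to be tested, S100A9, called higher (1.89 in log2), and PDGFRB, called lower (−1.07 in log2). The other listed myeloid and stromal markers had at most 9 counts in any library. The part of these markers in the receptor differences was not tested. In bulk RNA, fewer cells that express a gene and less of its RNA per cell cannot be told apart.

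Of the 9 receptors 8 had enough reads to be tested, and the changes were moderate and went both ways. TNFRSF10A and TNFRSF1B rose, TNFRSF13B and TNFRSF10B fell, and CD40, FAS, TNFRSF1A and TNFRSF13C did not pass an adjusted p of 0.05 (Benjamini-Hochberg over the 13971 genes tested). The 2 that rose and 2 that fell are 4 of 8 tested, beside 54.2% of all tested genes at that threshold (26.5% of all tested genes higher and 27.8% lower). With the study's additional limit of 0.58 on the log2 fold change, 0 of 8 were called by edgeR and by DESeq2, against 16.7% of all genes tested, 6.15% higher and 10.6% lower. At an unadjusted p under 0.05, 5 of the 8 passed, against 58.4% of all tested genes. The 8 had a median log2 fold change of −0.19, against 0.0012 over all tested genes, and the largest absolute value was 0.50. The 3 libraries of one group lay wholly on one side of the other group for 5 of the 8, of which 2 were higher and 3 lower, against 58.8% of all tested genes, 29.0% higher and 29.8% lower. CD27 did not pass the filter on low counts.

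**Figure D1:**
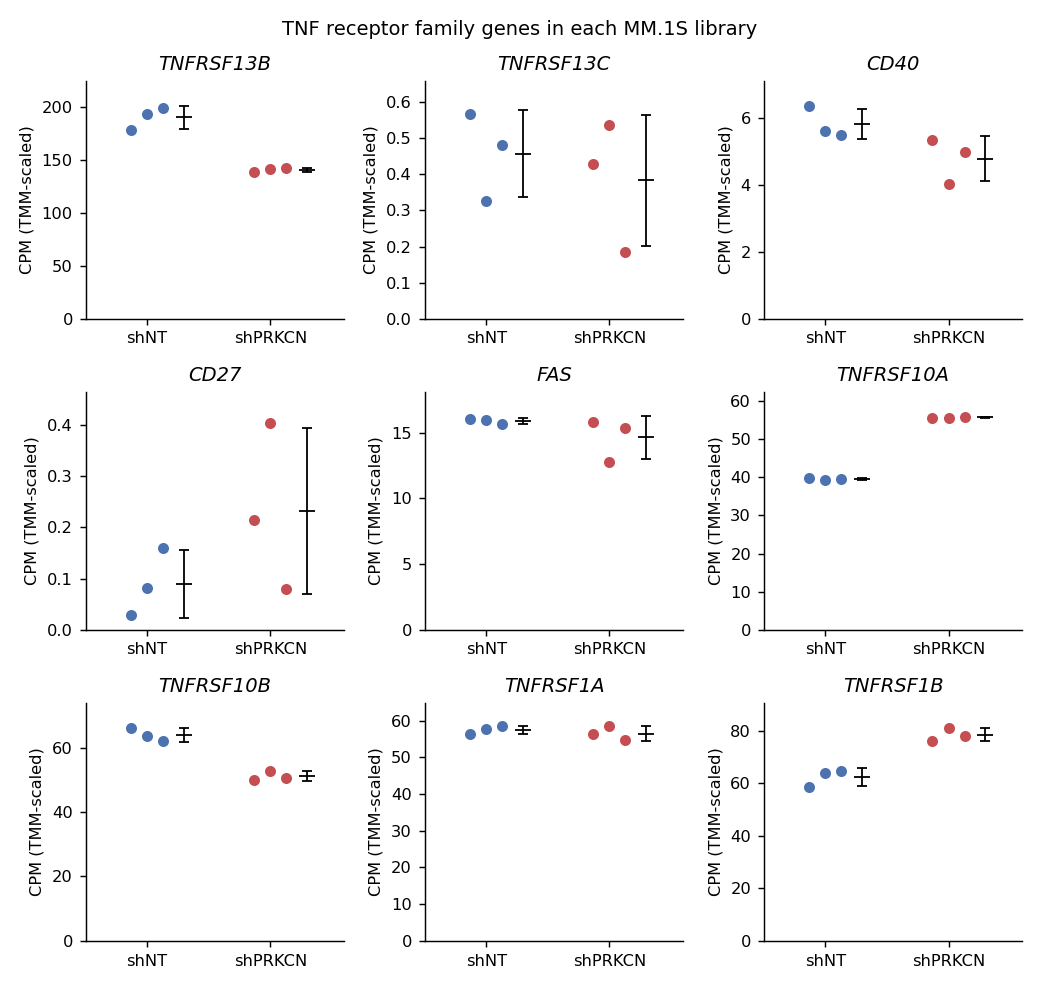
CPM (TMM-scaled, linear axis from 0) of each of the 9 receptor genes, with 1 point per library and the mean ± SD of 3 libraries as a bar beside the points. The groups separate for TNFRSF13B, TNFRSF10A, TNFRSF10B, TNFRSF1B and CD40, and overlap for TNFRSF13C, CD27, FAS and TNFRSF1A.

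**Figure D2:**
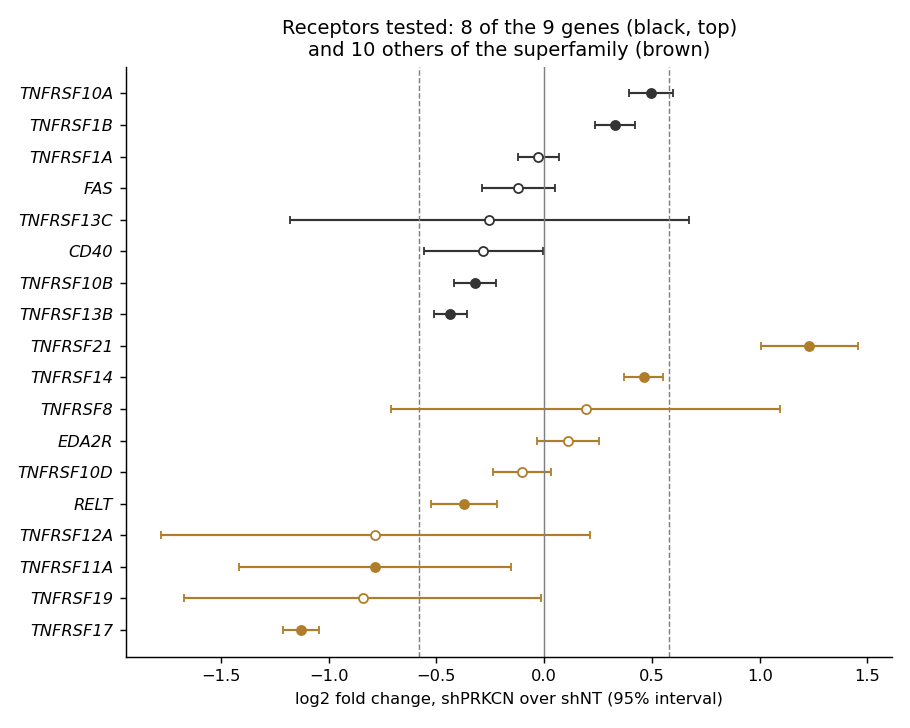
Log2 fold change (shPRKCN over shNT) with its 95% interval for the 8 tested receptors described here and 10 others of the superfamily, with filled points for an adjusted p under 0.05 and dashed lines at 0.58 in either direction. All 8 lie inside the dashed lines, from −0.44 for TNFRSF13B to 0.50 for TNFRSF10A, while TNFRSF17 lies at −1.13 and TNFRSF21 at 1.23.

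TNFRSF13B (GRCh38.p14 chromosome 17, 16939081 to 16972118, minus strand), the receptor of BAFF and APRIL known as TACI, was the most abundant of the 9 and fell. Its level was 178, 193 and 199 CPM in the shNT libraries and 138, 141 and 142 CPM in the shPRKCN libraries. Every shPRKCN library lay below every shNT library, and 74.0% of the control mean remained. In GENCODE release 29, 17.3% of its exonic bases overlap the pseudogene TBC1D27P on the same strand, so that reads there are uncertain. The log2 fold change was −0.44 (SE 0.039, adjusted p = 9.1e-16), with a 95% interval of −0.51 to −0.36 that stays short of the fold limit. TNFRSF13C (chromosome 22, 41922032 to 41926806, minus strand), which encodes the BAFF receptor of mature B cells, was barely detected, with 20, 12 and 18 counts in shNT and 16, 20 and 7 counts in shPRKCN libraries. These ranges overlap, and the log2 fold change of −0.25 (SE 0.464, adjusted p = 0.673) has an interval of −1.18 to 0.67, which does not exclude a difference past the fold limit in either direction. Without the third shPRKCN library its sign turned, to 0.09.

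TNFRSF17, which encodes BCMA, a further receptor of these ligands, fell further than TNFRSF13B. It had 140, 134 and 139 CPM in shNT and 63.7, 64.4 and 60.5 CPM in shPRKCN libraries, a log2 fold change of −1.13 (SE 0.042, adjusted p = 1.3e-34). The balance between both receptors can be read within a library, where it does not depend on library scaling, although the size of a ratio, and whether it passes 1, depends on the gene lengths behind FPKM. The ratio of TNFRSF13B to TNFRSF17 in FPKM (fragments per kilobase of gene, scaled to the library total) was 0.814, 0.927 and 0.917 in shNT and 1.39, 1.41 and 1.504 in shPRKCN libraries. The groups did not overlap, and the log2 ratio was higher by 0.70 in shPRKCN cells. With exonic lengths from GENCODE release 29 the mean ratio was 0.436 in shNT and 0.705 in shPRKCN cells, under 1 in every library, so that which of both receptors was more abundant in shPRKCN cells depends on the lengths, while the log2 difference does not. The summed FPKM of both receptors, with the deposited lengths, was 289 ± 7.06 in shNT and 173 ± 0.294 in shPRKCN cells (SD, n = 3). The genes of the ligands had few reads. TNFSF13 (APRIL) had 65 to 70 counts in shNT and 74 to 87 counts in shPRKCN libraries, with a log2 fold change of 0.25 (SE 0.225, adjusted p = 0.356). TNFSF13B (BAFF) had 25 to 45 and 23 to 43 counts, and its log2 fold change of −0.02 (SE 0.340, adjusted p = 0.971) changed sign under 4 alternatives.

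Promoter sequences were taken from RefSeq (GRCh38.p14, from 250 bases before to 50 bases after the annotated start), which had an entry for 5 of the 9 genes, TNFRSF13B, CD27, FAS, TNFRSF1A and TNFRSF1B. Those of TNFRSF13B, which fell, of TNFRSF1B, which rose, and of its paralog TNFRSF1A, which did not pass the test, are shown here because they are the start regions of receptors that moved apart. Capitals mark matches to 4 searched motifs on either strand, namely the interferon-stimulated response element core (GAAA, any 2 bases, GAAA), the ETS-IRF element (GGAA, any 2 bases, GAAA), a κB-like motif (GGG, any 3 bases, TTCC) and the AP-1 site (TGANTCA). The first and second overlap in their GAAA part. They occur in 3.57%, 2.82%, 6.52% and 7.71% of 35116 RefSeq promoters of the same length.
TNFRSF13B (chr17:16972069-16972368, minus strand): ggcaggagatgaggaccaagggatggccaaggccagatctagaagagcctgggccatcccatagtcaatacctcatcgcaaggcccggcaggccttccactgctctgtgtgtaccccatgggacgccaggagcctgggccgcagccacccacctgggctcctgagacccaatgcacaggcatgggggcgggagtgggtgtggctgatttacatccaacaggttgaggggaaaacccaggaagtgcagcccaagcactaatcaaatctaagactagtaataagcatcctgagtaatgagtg
TNFRSF1B (chr1:12166741-12167040, plus strand): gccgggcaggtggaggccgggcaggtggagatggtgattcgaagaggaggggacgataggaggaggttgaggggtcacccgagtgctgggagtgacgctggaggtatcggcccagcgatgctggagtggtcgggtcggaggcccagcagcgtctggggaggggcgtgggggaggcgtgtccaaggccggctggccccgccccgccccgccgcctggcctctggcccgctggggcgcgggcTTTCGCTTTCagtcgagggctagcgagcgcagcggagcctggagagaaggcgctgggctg
TNFRSF1A (chr12:6342027-6342326, minus strand): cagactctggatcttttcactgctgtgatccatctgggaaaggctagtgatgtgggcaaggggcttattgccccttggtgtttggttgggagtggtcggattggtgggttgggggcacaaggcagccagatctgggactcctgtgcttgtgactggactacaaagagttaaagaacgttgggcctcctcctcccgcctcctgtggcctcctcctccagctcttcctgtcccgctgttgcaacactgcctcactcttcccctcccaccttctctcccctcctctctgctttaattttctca
The window of TNFRSF1B holds 1 match, to the interferon-stimulated response element core on the reverse strand, which begins 10 bases before the start. The windows of TNFRSF13B and TNFRSF1A hold 0 matches to these letters. Those of TNFRSF14 and TNFRSF21, other receptors of the superfamily that rose (0.46 and 1.23 in log2), also hold 0 matches. An AP-1 match also lies in the window of CD27 and in 1 of the 3 windows of FAS. A match of letters describes the sequence and does not show that a factor binds there.

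The TRAIL receptors moved in opposite directions. Both carry a death domain and start apoptosis when TRAIL binds. TNFRSF10A (DR4) had 39.8, 39.2 and 39.5 CPM in shNT and 55.7, 55.6 and 55.9 CPM in shPRKCN libraries. All shPRKCN libraries were above all shNT libraries, with a spread within each group under 1 CPM. The log2 fold change was 0.50 (SE 0.050, adjusted p = 1.8e-13), with an interval of 0.40 to 0.60 that includes the fold limit, and 24.9% of tested genes had a larger absolute change. TNFRSF10B (DR5) had 66.2, 63.5 and 62.0 CPM in shNT and 49.99, 52.9 and 50.5 CPM in shPRKCN libraries. Here every shPRKCN library was below every shNT library, and the log2 fold change was −0.32 (SE 0.048, adjusted p = 4.1e-08). Within a library, the FPKM ratio of TNFRSF10A to TNFRSF10B was 0.892, 0.918 and 0.949 in shNT and 1.66, 1.56 and 1.65 in shPRKCN libraries, a difference of 0.82 in log2. With any 1 library left out this difference stayed between 0.80 and 0.84. With the GENCODE lengths the mean ratio was 1.08 in shNT and 1.91 in shPRKCN cells, above 1 in every library. The summed FPKM of both receptors was 30.4 ± 0.565 in shNT and 33.7 ± 0.119 in shPRKCN cells (SD, n = 3).

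Both TRAIL receptor genes lie on chromosome 8 (GRCh38.p14, minus strand), TNFRSF10B from 23020133 to 23069031 and TNFRSF10A from 23190452 to 23225102, with the decoy receptor genes TNFRSF10C and TNFRSF10D between them. TNFRSF10D, which binds TRAIL without a complete death domain, had 25.4, 26.4 and 25.0 CPM in shNT and 22.2, 23.0 and 26.2 CPM in shPRKCN libraries. The groups overlap, with a log2 fold change of −0.10 (SE 0.067, adjusted p = 0.193), and without the third shPRKCN library it reached an adjusted p of 0.0498. TNFRSF10C had 0 to 5 counts in shNT and 1 to 10 counts in shPRKCN libraries and was not tested. TNFSF10, the gene of TRAIL itself, had 12.9, 12.3 and 13.1 CPM in shNT and 11.9, 11.7 and 12.3 CPM in shPRKCN libraries, with a log2 fold change of −0.09 (SE 0.091, adjusted p = 0.412). In GENCODE release 29 transcripts, 12.4% of the 50-base stretches of TNFRSF10A and 1.35% of those of TNFRSF10B occur in another gene. For TNFRSF10A the genes with most of them are transcripts of the opposite strand at its own locus, TNFRSF10A-AS1 and AC100861.1. None of the 3 genes that shared most stretches with either receptor was a TRAIL receptor. Whether the counting used strand is not given in the sources used here, so that reads of these antisense transcripts cannot be told apart from those of TNFRSF10A.

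**Figure D3:**
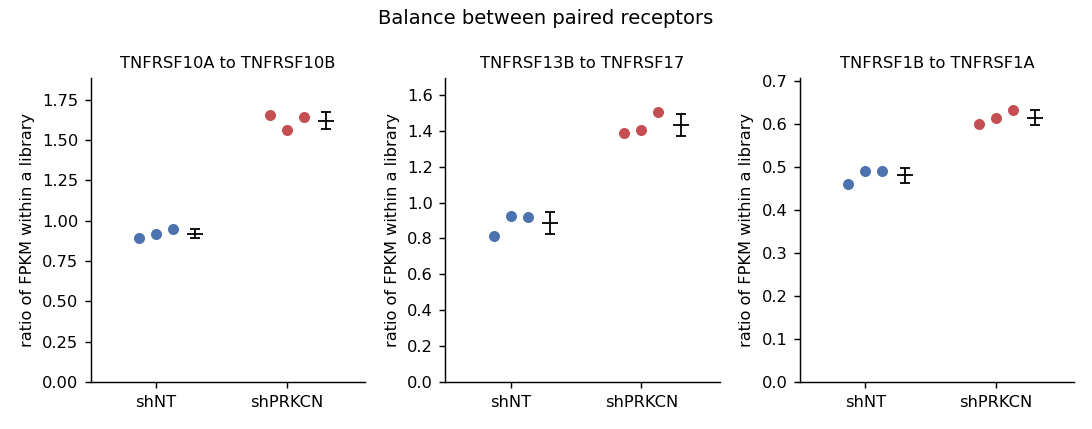
Ratio of FPKM (deposited lengths) between 2 receptor genes within each library, for TNFRSF10A to TNFRSF10B, TNFRSF13B to TNFRSF17 and TNFRSF1B to TNFRSF1A, with points for libraries and bars for mean ± SD (n = 3 per group). In all 3 panels the shPRKCN libraries lie above the shNT libraries, from 0.920 to 1.62 on average for the TRAIL receptors.

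FAS, the death receptor of FAS ligand, lies on chromosome 10 (88964050 to 89017059, plus strand). It had 16.1, 16.0 and 15.7 CPM in shNT and 15.8, 12.8 and 15.3 CPM in shPRKCN libraries. The second shPRKCN library alone was low, and the groups overlapped. The log2 fold change was −0.12 (SE 0.085, adjusted p = 0.237) with an interval of −0.29 to 0.05, which excludes a change past the fold limit, and without that library it was −0.03. The gene of the ligand, FASLG, had 1 count in all 6 libraries together. In GENCODE release 29, 8.93% of the exonic bases of FAS overlap ACTA2 on the opposite strand, which had 2 to 14 counts.

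The receptors of TNF itself also differed from each other. TNFRSF1A (chromosome 12, 6328771 to 6342076, minus strand), the death domain receptor TNFR1, had 56.3, 57.8 and 58.4 CPM in shNT and 56.2, 58.5 and 54.6 CPM in shPRKCN libraries. These values overlap, and the log2 fold change of −0.03 (SE 0.048, adjusted p = 0.664) had an interval of −0.12 to 0.07. TNFRSF1B (chromosome 1, 12166991 to 12209220, plus strand), the receptor TNFR2 that signals through TRAF2, had 58.6, 64.0 and 64.8 CPM in shNT and 76.1, 81.0 and 78.1 CPM in shPRKCN libraries. It rose in every shPRKCN library above every shNT library, with a log2 fold change of 0.33 (SE 0.047, adjusted p = 9.4e-09). The FPKM ratio of TNFRSF1B to TNFRSF1A was 0.481 ± 0.0173 in shNT and 0.615 ± 0.0171 in shPRKCN cells (SD, n = 3), or 1.15 and 1.48 on average with the GENCODE lengths. TNF had 2 counts in the first shNT library and 0 counts in the other 5 libraries. A count of 0 allows up to 3 counts per library here, for counting error only, and no difference in TNF was detectable at this depth.

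CD40 and CD27 are costimulatory receptors of B cells, engaged by CD40LG and CD70. CD40 (chromosome 20, 46118314 to 46129858, plus strand) had 6.34, 5.602 and 5.50 CPM in shNT and 5.33, 4.03 and 4.98 CPM in shPRKCN libraries. The groups did not overlap, but the spread was wide for its 150 to 224 counts. The log2 fold change was −0.28 (SE 0.139, adjusted p = 0.081), with an interval of −0.56 to −0.0040 before adjustment. Leaving out the first shPRKCN library moved it to −0.37 (adjusted p = 0.041) and leaving out the second to −0.17. CD27 (chromosome 12, 6443892 to 6451713, plus strand) had 1, 3 and 6 counts in shNT and 8, 15 and 3 counts in shPRKCN libraries. Its counts overlap between the groups. They stand at or near the floor of 3 counts in the shNT libraries and the third shPRKCN library, and above it in the first and second shPRKCN libraries. In GENCODE release 29, 37.0% of its exonic bases overlap CD27-AS1 on the opposite strand, which had 315 to 400 counts per library, many more than CD27. Of the ligands, CD40LG had 1 count in all libraries together. CD70, named after its values were seen, fell from 12.6 ± 0.910 to 9.48 ± 0.492 CPM (SD, n = 3), with a log2 fold change of −0.41 (SE 0.098, adjusted p = 0.000232).

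Levels of different genes were compared per length, in FPKM. In shNT cells the order of the means was TNFRSF13B (136), TNFRSF1A (24.9), TNFRSF10B (15.9), TNFRSF10A (14.6), TNFRSF1B (12), CD40 (2.12), FAS (1.70), TNFRSF13C (0.116) and CD27 (0.040). No neighbours in this order overlapped across the 3 libraries. In shPRKCN cells TNFRSF10A (20.9 FPKM) and TNFRSF1B (15.3 FPKM) stood above TNFRSF10B (12.9 FPKM). The pairs CD40 with FAS and CD27 with TNFRSF13C overlapped there and could not be ordered. The order depends on the gene lengths behind FPKM, which were 1391 bases for TNFRSF13B and 9284 bases for FAS, against exonic lengths of 3550 and 4253 bases in GENCODE release 29. With the GENCODE lengths TNFRSF13B remained first (53.1 FPKM in shNT), TNFRSF1B came second at 16.5 and TNFRSF10A (13.3) stood above TNFRSF10B (12.3) already in shNT cells. FAS (3.71) then stood above CD40 (2.29). The ratio between the groups is the same for any length.

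The other receptors of the superfamily are a list of 20 genes, of which 17 are listed and 10 were tested. Of these 10, 2 were higher and 3 lower past the adjusted p, and 1 was called higher and 2 lower with the fold limit. Over all tested genes, 54.2% passed the adjusted p (26.5% higher and 27.8% lower) and 16.7% also the fold limit. Their median was −0.24 in log2. TNFRSF21 (DR6), a death domain receptor, rose from 5.01, 5.39 and 4.83 CPM in shNT to 12.02, 12.6 and 11.1 CPM in shPRKCN libraries, a log2 fold change of 1.23 (SE 0.113, adjusted p = 3.4e-15). TNFRSF17 had the lowest log2 fold change of these 10. TNFRSF11A (RANK) was also called lower, at −0.78 (SE 0.315, adjusted p = 0.030), from 36 to 66 counts in shNT to 25 to 37 counts in shPRKCN libraries. This call was lost with DESeq2 (adjusted p = 0.062) and without the first or the third shNT library or the first or the second shPRKCN library, where the adjusted p rose to at most 0.229. The remaining pair past the adjusted p, TNFRSF14 (HVEM, 0.46) and RELT (−0.37), were named after their log2 values were seen.

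Ligand genes of the superfamily are 18, of which 15 are listed and 11 were tested. Of these, 2 were called higher and 2 lower, beside 6.15% and 10.6% of all tested genes. An adjusted p of 0.05 was passed by 5, beside 54.2% of all tested genes, and the median log2 fold change was −0.04. LTB (lymphotoxin β) rose from 24, 33 and 33 counts in shNT to 69, 61 and 57 counts in shPRKCN libraries, a log2 fold change of 1.02 (SE 0.292, adjusted p = 0.00232). Its receptor gene LTBR had 4 to 9 and 6 to 15 counts and was not tested. TNFSF14 (LIGHT), a ligand of TNFRSF14, had 8, 2 and 3 counts in shNT and 16, 15 and 14 counts in shPRKCN libraries, so that its log2 fold change of 1.72 (SE 0.599, adjusted p = 0.012) rests on few reads, and the adjusted p was 0.078 without the second and 0.060 without the third shNT library. TNFSF9 (4-1BB ligand) fell by 0.96 on the log2 scale (SE 0.162, adjusted p = 5.8e-07), from 5.29 ± 0.440 to 2.71 ± 0.346 CPM (SD, n = 3). TNFSF15 fell by 0.78 on the log2 scale (SE 0.249, adjusted p = 0.00606), from 65 to 87 counts in shNT to between 43 and 51 in shPRKCN libraries. This call for TNFSF15 was lost with limma on log2(FPKM + 0.1), at −0.54 (adjusted p = 0.0502), and on log2(FPKM + 1), at −0.15.

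Downstream of the death receptors, XIAP, an inhibitor of caspases, fell, while the genes of the receptor-bound proteins CASP8, FADD and CFLAR did not pass the test. All 17 genes of the death receptor signaling list were tested, of which 3 were higher and 5 lower past the adjusted p. The shares over all tested genes were 26.5% higher and 27.8% lower, and 6.15% and 10.6% past both limits. Past both limits 0 were higher and 2 lower (DESeq2 also gave 2 lower), and the list's median was 0.02 in log2. CASP8, the initiator caspase, had a log2 fold change of −0.05 (SE 0.038, adjusted p = 0.267, interval −0.13 to 0.03). FADD, its adaptor, had 0.06 (SE 0.059, adjusted p = 0.423), and CFLAR, which encodes the caspase-8 inhibitor c-FLIP, had 0.02 (SE 0.037, adjusted p = 0.749). XIAP had 44.0, 42.7 and 41.3 CPM in shNT and 29.9, 27.5 and 27.0 CPM in shPRKCN libraries. The groups did not overlap, and it fell by 0.60 on the log2 scale (SE 0.057, adjusted p = 1.6e-14), just past the fold limit, and it lay inside that limit, at −0.578 and −0.565, without the first shNT or the third shPRKCN library. Not every gene of this list past the adjusted p, or past both limits, is named here. Past the adjusted p, RIPK1 (0.39), BID (0.39) and MLKL (0.51) were higher on the log2 scale. CYLD (−0.37) and CASP10 (−0.13) were lower, and all of these were named after their values were seen. None of the 12 TRAF and cIAP adaptor genes passed both limits in edgeR or DESeq2, beside 16.7% of all tested genes in edgeR. An unadjusted p under 0.05 was reached by 5 of the 12, beside 58.4% of all tested genes. At an adjusted p under 0.05, TRAF3 (0.16), TRAF5 (0.31) and OTUB1 (0.31) were higher and TRAF6 (−0.20) and BIRC3 (−0.34), which encodes cIAP2, lower on the log2 scale, also named after their values were seen, and the median of the list was −0.05.

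**Figure D4:**
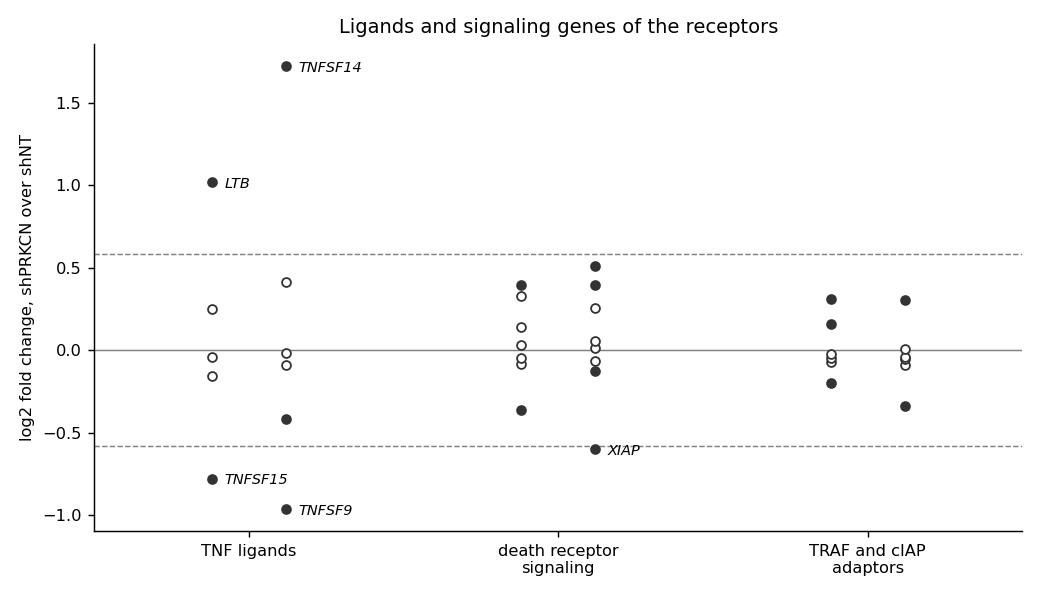
Log2 fold change (shPRKCN over shNT) of tested genes of 3 lists, 11 ligands, 15 of the 17 death receptor signaling genes and 12 TRAF and cIAP adaptors, with filled points for an adjusted p under 0.05, dashed lines at 0.58 in either direction and names for the genes past both limits. Of the genes plotted, TNFSF9 is the lowest at −0.96 and TNFSF14 the highest at 1.72, while all TRAF and cIAP adaptors lie within 0.34 of 0.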

How the data were processed

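RNA was sequenced from MM.1S cells in 3 shNT and 3 shPRKCN libraries on day 3. The authors deposited raw counts and FPKM for 21850 genes. Per the labels, FastQC, HISAT2, StringTie and GRCh38.p14 were used. Versions, annotation and strandedness are not given in the sources used here. FPKM of every gene follow from the deposited counts, the library totals and 1 length per gene, so both tables hold the same measurement. The paper compared groups with DESeq2.

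Here, edgeR 4.0.16 in R 4.3.3 fitted the counts of 13971 genes that passed filterByExpr, with TMM scaling and its quasi-likelihood test. A call needed an adjusted p (Benjamini-Hochberg) below 0.05 together with an absolute log2 fold change above 0.58, the study's limits. A standard error is the log2 fold change divided by the square root of F, and 95% intervals use the same error. Library totals of 35625564 to 37730003 limit the precision of low genes, and 3 counts were taken as the floor. With 3 libraries per group an exact permutation test cannot go below p = 0.1. Alternatives tried were DESeq2 1.42.0, other scalings (library size, RLE, upper quartile), no filter, a minimum of 10 counts per library, a replicate block, each library left out, limma 3.58.1 on the log2 scale of FPKM with a pseudocount of 1 or 0.1, also with an FPKM of at least 1 in 3 libraries, no fold limit, and glmTreat. GENCODE lengths and ratios with a library left out were added after seeing the data. The fitting steps were tested on simulated data. Positions are RefSeq's on GRCh38.p14. Genes named are the 9 receptors, their main ligands, decoys and adaptors, and up to 4 called genes per direction of each list. Some genes counted in the lists are not reported here by name. The genes, lists and tests were chosen with earlier results of these data known.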

Additional observations from a re-analysis of the deposited data

How the results depend on the processing

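The 2 higher and 2 lower receptors at an adjusted p under 0.05 were found with each normalization, filter and limma scale tried, and TNFRSF13B, TNFRSF1B, TNFRSF10A and TNFRSF10B each kept their direction and side of that threshold in 16 of 16 such alternatives. glmTreat, which tests against a change of 0.58, gave an adjusted p of 1 for each. With single libraries left out, 2 were higher and 2 to 3 lower, the added one being CD40 without the first shPRKCN library. The replicate number did not pair the libraries (correlations of same-numbered libraries of −0.042, −0.013 and 0.0038), and no library correlated best with its own number. With the replicate block, 2 receptors were higher and 2 lower, as without it, and the block moved no count of calls by over 1.5 times.

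Over all tested genes, 859 were called higher and 1475 lower. These counts were 315 and 648 with limma on log2(FPKM + 1), 310 and 635 with the FPKM filter added, 339 and 821 with glmTreat, and 3700 and 3877 with no fold limit, and ran from 815 to 874 and from 1437 to 1487 with single libraries left out. With no fold limit the calls became 2 higher and 2 lower among the 9 receptors, 2 higher among the other receptors, 3 higher and 5 lower in death receptor signaling, and 3 higher and 2 lower among the adaptors. Among the other receptors, 2 were higher with log2(FPKM + 0.1), and 1 was lower with DESeq2, glmTreat and each limma scale. Among the ligands, 1 was higher with at least 10 counts in every library and with each limma scale, 0 with glmTreat, and 1 was lower with glmTreat and each limma scale. In death receptor signaling 1 was lower with glmTreat and each limma scale. With single libraries left out, the other receptors ran from 1 to 2 higher and 1 to 2 lower, the ligands from 1 to 2 higher, and death receptor signaling from 0 to 1 higher (without the first shNT or second shPRKCN library) and 1 to 2 lower (1 without the first shNT or the third shPRKCN library). Where the cause is not the alternative's own construction, it was not tested.

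Signs turned for results that passed no test. TNFRSF13C ran from −0.5738 to 0.0863, TNFRSF1A from −0.0527 to 0.0036 and TNFSF13B from −0.2126 to 0.2224 in log2 with single libraries left out, and TNFSF13B was 0.0051 with library-size scaling and 0.0005 with log2(FPKM + 1). Depth limits TNFRSF13C, CD27, TNFRSF10C and LTBR, with at most 20 counts in any library.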

Other observations

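Some receptor genes of the superfamily stood at few reads, and TNFRSF25 and LTBR did not pass the filter for testing. TNFRSF25 (DR3), a death domain receptor of the TNFSF15 ligand, had 2, 4 and 6 counts in the shNT libraries and 12, 12 and 10 counts in the shPRKCN libraries. It was named after its counts were seen. Its groups do not overlap, beside 58.8% of all tested genes. LTBR lies between TNFRSF1A and CD27 on chromosome 12, with gaps of 33.1 kb and 52.3 kb. It had 9, 4 and 4 counts in shNT and 6, 15 and 12 counts in shPRKCN libraries, while its neighbour TNFRSF1A had 1988 to 2187 counts. TNFRSF8 (CD30) ends 22.8 kb before TNFRSF1B on chromosome 1 and had 13, 19 and 14 counts in shNT and 27, 18 and 9 counts in shPRKCN libraries, which overlap, with a log2 fold change of 0.19 (SE 0.452, edgeR adjusted p = 0.745). In CPM, the second shPRKCN library was the lowest of all 6 for CD40 and FAS, and the highest for CD27 and TNFRSF1B. It was also narrowly the highest for TNFRSF1A, at 58.5 CPM beside 58.4 CPM in the third shNT library.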
